A study of Mus musculus with 6 samples.

Results

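The integrated stress response (ISR) genes described here are the transcription factor genes Atf4, Atf3, Atf5, Ddit3 and Cebpb and the feedback and target genes Chac1, Trib3, Ppp1r15a, Sesn2 and Stc2, 10 of the 26329 genes for which the authors deposited expression values. They were taken by their symbols, all 10 were found, and all 10 were among the 12922 genes whose mean level over the libraries was at least 1 FPKM (fragments per kilobase of a gene, relative to the size of its library). The samples were mouse ovaries kept in culture, 3 libraries (ISRIB 1 to 3) with ISRIB dissolved in DMSO and 3 libraries (Control 1 to 3) with DMSO, the solvent that both groups received. The series' design text names newborn ICR mice for its injection experiments. The sources used here do not give the strain, age, dose, length of culture or number of animals behind a library for the cultured ovaries. P-values therefore measure the spread between these libraries, which may be technical. Markers of the labelled tissue were present: the oocyte helicase Ddx4, the granulosa factor Foxl2 and the stromal collagen gene Col1a1 were above 0 in every library. Whole reads worked back from the FPKM summed to 35679814 to 36834799 in ISRIB and 34474821 to 38002135 in Control, and replicates differed by more than sampling noise in every pair (chi-square per gene 7.76 to 18.7).

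In the ISR, stress-sensing kinases phosphorylate the translation initiation factor eIF2, which then blocks its own exchange factor eIF2B. Protein synthesis slows in general, while mRNAs with upstream reading frames, Atf4 among them, are translated more. ATF4 protein then switches on genes of amino acid supply, further transcription factors such as CHOP (the product of Ddit3), and feedback genes such as Ppp1r15a, whose product GADD34 brings a phosphatase to eIF2. ISRIB activates eIF2B and so makes cells less sensitive to the phosphorylated form. The values below are mRNA levels of whole ovary, so translation and protein were not measured, and fewer cells of a type cannot be told apart from less RNA per cell.

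None of the 10 genes passed the test. In limma on log2(FPKM + 0.5), 0 of 10 had a Benjamini-Hochberg adjusted p under 0.05, against 0% of all genes tested. At an unadjusted p under 0.05 there were 3 higher in ISRIB (Ddit3, Stc2 and Atf5), where 8.71% of all genes tested were, and 1 lower (Chac1), where 7.73% were. The lowest ISRIB library lay above the highest Control library for 2 genes (Ddit3 and Stc2, background 10.8%) and the highest ISRIB library below the lowest Control library for 1 (Chac1, background 12%, and 22.8% for both directions together), and for the other 7 the groups overlapped. With voom on the recovered reads, 0 of 10 passed, against 0.929% of all genes tested. The log2 fold change was positive for 9 and negative for 1, with 51.8% positive over all genes tested. Its median was 0.23 for the 10 genes and 0.01 for all genes tested, and for the 10 genes it was 0.11 without ISRIB 1. The summed FPKM was higher in every ISRIB library (348086 to 350176) than in any Control library (333172 to 339809). With these sums set equal (TPM rescaling), the median was 0.17 for the 10 genes, 8 of them positive, and −0.04 for all genes tested. With a trend over gene length removed, the median of the 10 genes was 0.16.

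Ddit3 and Chac1 went in opposite directions by nearly the same step. Ddit3 codes for CHOP, a transcription factor of prolonged stress that pairs with C/EBP proteins, and Chac1 for an enzyme that breaks down glutathione and is known as a target of ATF4. Ddit3 lies on chromosome 10 (127290774 to 127296288, plus strand, GRCm38). On the opposite strand it overlaps the end of Mars by 68 bases and Gm4189 by 15. Chac1 lies on chromosome 2 (119351229 to 119354381, plus strand) with no overlapping gene in GENCODE M21. The stretches before their starts are shown because the contrast turns on these genes, together with that of Atf3, another factor gene downstream of ATF4. Each is the 250 bases before the RefSeq start (GRCm38.p6), written in the direction of the gene, with matches to TGATGNAA or TGACGNAA on either strand in capitals, where N is any base. Both are forms of the composite C/EBP-ATF element that ATF4 and its C/EBP partners are known to bind. The Atf3 stretch lies inside the span that GENCODE M21 gives for the gene (191170296 to 191218039), before a start within that span.
Ddit3, chr10:127290543-127290792, plus strand: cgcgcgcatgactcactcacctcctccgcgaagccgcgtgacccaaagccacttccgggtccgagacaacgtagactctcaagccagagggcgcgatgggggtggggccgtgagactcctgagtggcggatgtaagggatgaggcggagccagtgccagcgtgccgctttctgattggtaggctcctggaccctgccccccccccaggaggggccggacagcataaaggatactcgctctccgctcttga
Chac1, chr2:119350992-119351241, plus strand: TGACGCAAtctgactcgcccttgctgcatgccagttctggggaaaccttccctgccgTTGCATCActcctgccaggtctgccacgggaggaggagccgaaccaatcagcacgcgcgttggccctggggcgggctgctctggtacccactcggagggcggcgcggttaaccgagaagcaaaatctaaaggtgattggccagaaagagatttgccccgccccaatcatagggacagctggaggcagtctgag
Atf3, chr1:191183334-191183583, minus strand: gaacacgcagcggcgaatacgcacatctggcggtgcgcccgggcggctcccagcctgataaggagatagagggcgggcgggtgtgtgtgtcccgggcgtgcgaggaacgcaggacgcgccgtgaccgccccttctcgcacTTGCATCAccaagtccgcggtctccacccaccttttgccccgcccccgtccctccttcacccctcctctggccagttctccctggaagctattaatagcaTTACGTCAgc

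The Chac1 stretch held TGACGCAA with its first base 250 bases before the start and TTGCATCA, a match on the opposite strand, 193 bases before it. The Atf3 stretch held opposite-strand matches TTGCATCA and TTACGTCA, 110 and 10 bases before the start. No match was found in the Ddit3 window, which says only that these letters are not within it. In windows that also took in the 50 bases after the start, TGATGNAA matched for 3 of the 10 genes (Atf3, Chac1 and Trib3) and 3.97% of 32851 RefSeq windows, and TGACGNAA for 2 (Atf3 and Chac1) and 1.59%. The cyclic AMP response element TGACGTCA was found in the Ppp1r15a window alone, against 1.79% of all windows. A match is a description of the letters, and binding was not measured.

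Ddit3 measured 11.3, 11.7 and 10.6 FPKM in the ISRIB libraries, against 7.09, 9.38 and 8.20 FPKM in Control. The lowest ISRIB library lay above the highest Control library, and the reads behind these levels were 1042, 1113 and 972 in ISRIB and 629, 916 and 802 in Control. Its mean was 11.2 ± 0.582 FPKM in ISRIB and 8.23 ± 1.15 in Control (mean ± SD of 3 libraries in each group). This made a log2 fold change of 0.43 (SE 0.0970, 95% interval 0.21 to 0.65, limma adjusted p = 0.119). Chac1 measured 5.36, 5.95 and 6.16 FPKM in ISRIB, against 6.83, 8.58 and 8.70 FPKM in Control. Here every ISRIB library lay below every Control library, with 306, 348 and 349 reads in ISRIB and 374, 517 and 525 in Control. The mean was 5.82 ± 0.414 FPKM in ISRIB and 8.04 ± 1.05 in Control (SD, n = 3 each), and the log2 fold change came to −0.43 (SE 0.101, 95% interval −0.66 to −0.19, limma adjusted p = 0.119). Control 1 had the lowest Control level of both genes. Among 8 cell type marker lists, the summed level of 5 endothelial markers also separated the groups, at 81.8, 91.0 and 90.7 FPKM in ISRIB, against 101, 101 and 108 FPKM in Control, and its part in the difference of either gene was not tested. The summed levels of the other 7 lists overlapped between the groups, and no marker was at 0 in all libraries. Single markers within those 7 lists did separate the groups, as 22.8% of all genes tested did in either direction. The macrophage genes Csf1r (log2 fold change −0.36) and Adgre1 (−0.34), the surface epithelium marker Lgr5 (−0.45) and the stromal receptor gene Pdgfra (−0.12) were lower in every ISRIB library. The oocyte coat gene Zp3 (0.20) and the hemoglobin gene Hbb-bs (1.54) were higher (limma adjusted p of 0.101 to 0.318 for these genes). Their lists were mostly mixed, with 2 immune markers tested higher and 2 lower, 3 stromal higher and 2 lower, and 4 oocyte higher and 3 lower. All 4 surface epithelium markers were lower, and all 3 red cell markers tested were higher. Csf1r measured 3.51, 3.29 and 3.54 FPKM in ISRIB, against 4.39, 4.81 and 4.47 FPKM in Control, and the part of these markers in either gene's difference was not tested.

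The ratio of the 2 genes within a library does not depend on how the library was scaled. Ddit3 over Chac1 was 2.10, 1.97 and 1.72 in the ISRIB libraries, against 1.04, 1.09 and 0.943 in Control. It averaged 1.93 ± 0.195 in ISRIB and 1.02 ± 0.0762 in Control (SD, n = 3 each), and the groups did not overlap. On the log2(FPKM + 0.5) scale the difference between the 2 fold changes was 0.86, with a within-group SD of the log2 ratio of 0.122. The pair was named with its earlier results known, so these ratios are a description with no test. The size of the ratio rests on the gene lengths that the authors used. Those implied by the FPKM were about 2573 bases for Ddit3, longer than the 1713 bases of all its GENCODE M21 exons together, and about 1588 bases for Chac1, whose exons hold 1637. Which bases were counted for Ddit3 is therefore not known.

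**Figure D1:**
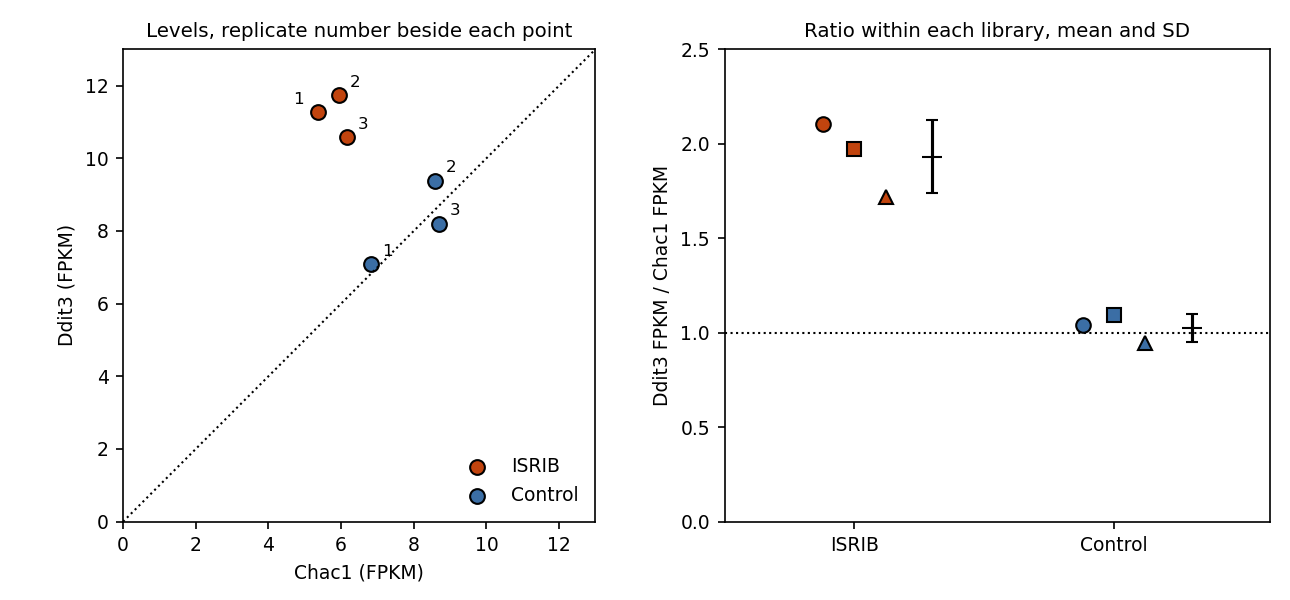
Left, the level of Ddit3 (y axis, FPKM) against that of Chac1 (x axis, FPKM) in each library, with replicate numbers and a dotted line where they are equal. Right, the ratio of Ddit3 to Chac1 FPKM in each library with the mean and SD of each group (n = 3). The ISRIB libraries lie above the line at ratios of 1.72 to 2.10, and the Control libraries lie near it at 0.943 to 1.09.

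Among the transcription factor genes, Atf4 was the most abundant and Atf3 the least. Atf4, the central factor of the response (chromosome 15, 80255184 to 80257541, plus strand), measured 183, 144 and 138 FPKM in ISRIB, against 118, 143 and 131 FPKM in Control, a level above 97.8% of the genes tested. ISRIB 2 and 3 lay close to Control 2, and ISRIB 1 lay above all others. The log2 fold change was 0.24 (SE 0.112, 95% interval −0.02 to 0.50, limma adjusted p = 0.334), and 0.11 without ISRIB 1. Atf5, a related factor whose translation is also raised by the ISR (chromosome 7, 44812256 to 44816658, minus strand), measured 63.4, 56.1 and 59.7 FPKM in ISRIB, against 56.7, 49.9 and 51.5 FPKM in Control. The groups overlapped only through ISRIB 2 and Control 1, and the log2 fold change was 0.18 (SE 0.0637, 95% interval 0.03 to 0.33, adjusted p = 0.231). The span of Atf5 overlaps Nup62 and Il4i1 on the opposite strand, whose reads may not be told apart from its own.

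Atf3 and Cebpb varied within the groups more than at least 99.0% of the genes tested did. Atf3, a factor gene that responds to many stresses (chromosome 1, 191170296 to 191218039, minus strand), measured 7.38, 4.72 and 4.21 FPKM in ISRIB, against 2.88, 6.82 and 4.06 FPKM in Control. ISRIB 1 and Control 2 were high and Control 1 was low, so that the log2 fold change of 0.26 (SE 0.287, adjusted p = 0.693) was 0.00 without Control 1, 0.04 without ISRIB 1 and 0.56 without Control 2. Cebpb, which codes for a C/EBP partner of ATF4 (chromosome 2, 167688915 to 167690418, plus strand), measured 118, 57.0 and 53.6 FPKM in ISRIB, against 55.3, 77.1 and 53.9 FPKM in Control. Only ISRIB 1 lay above the Control range, and ISRIB 3 was the lowest of the libraries. Its log2 fold change was 0.22 (SE 0.286, 95% interval −0.44 to 0.87, adjusted p = 0.750) and −0.15 without ISRIB 1. Tmem189 on the opposite strand overlaps the span of Cebpb by 908 bases.

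**Figure D2:**
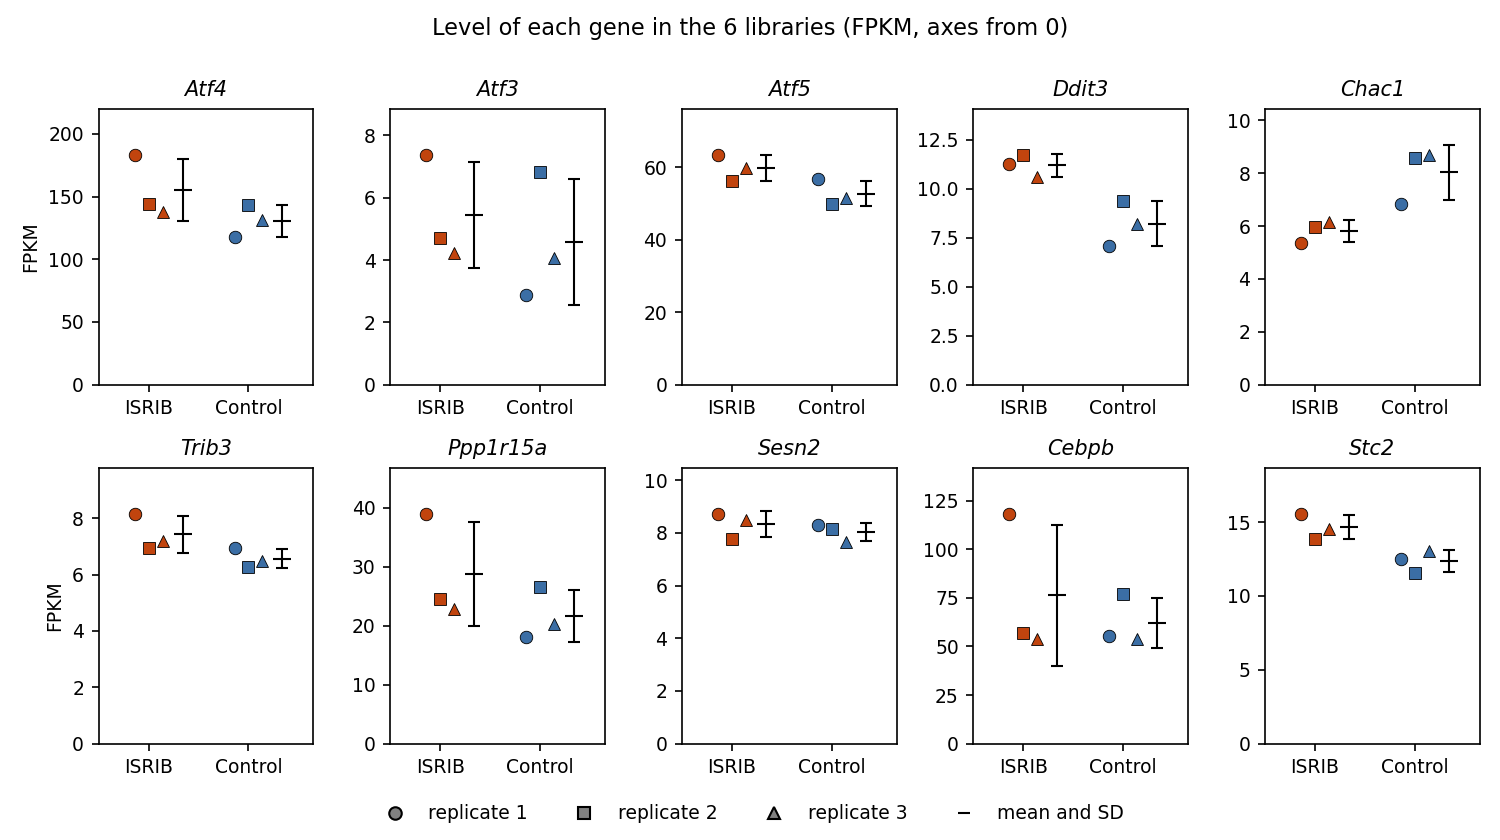
Level (y axis, FPKM, from 0) of each of the 10 genes in the 3 ISRIB and 3 Control libraries, with symbols for the replicates and the mean and SD of each group beside them. Ddit3 and Stc2 are higher and Chac1 is lower in every ISRIB library than in any Control library, and ISRIB 1 stands highest for 8 of the 10 genes.

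Of the feedback genes, Ppp1r15a had the next largest difference after Ddit3 and Chac1 but also a wide spread. Ppp1r15a (chromosome 7, 45522916 to 45526268, minus strand) measured 38.9, 24.4 and 22.9 FPKM in ISRIB, against 18.1, 26.6 and 20.2 FPKM in Control. ISRIB 1 was above the rest, and ISRIB 2 and 3 lay within the Control range. The log2 fold change was 0.38 (SE 0.207, 95% interval −0.10 to 0.86, adjusted p = 0.403) and 0.14 without ISRIB 1. Tulp2 on the opposite strand overlaps its span by 717 bases. Trib3 codes for a pseudokinase that restrains ATF4 and CHOP (chromosome 2, 152337422 to 152344032, minus strand) and measured 8.16, 6.94 and 7.18 FPKM in ISRIB, against 6.94, 6.27 and 6.49 FPKM in Control. ISRIB 2 and Control 1 were nearly equal, and the log2 fold change was 0.16 (SE 0.0775, 95% interval −0.02 to 0.34, adjusted p = 0.337), 0.10 without ISRIB 1 and 0.07 without ISRIB 1 and Control 2.

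The last 2 targets were among the steadier genes. Sesn2, whose product sestrin 2 senses leucine and restrains the growth kinase complex mTORC1 (chromosome 4, 132492032 to 132510501, minus strand), measured 8.72, 7.78 and 8.51 FPKM in ISRIB, against 8.30, 8.16 and 7.66 FPKM in Control. Its libraries were interleaved, with a log2 fold change of 0.05 (SE 0.0662, 95% interval −0.10 to 0.20, adjusted p = 0.755) and −0.00 after TPM rescaling, which sets the summed level of each library to the same value. A noncoding gene, Gm12981, overlaps its span by 6089 bases on the same strand. Stc2, which codes for the secreted glycoprotein stanniocalcin 2 (chromosome 11, 31357307 to 31370074, minus strand), measured 15.6, 13.9 and 14.6 FPKM in ISRIB, against 12.5, 11.6 and 13.1 FPKM in Control. Each ISRIB library was above each Control library by a small step, a log2 fold change of 0.24 (SE 0.0660, 95% interval 0.08 to 0.39, adjusted p = 0.152) and 0.15 without ISRIB 1 and Control 2. Within-group variation of Sesn2 and Stc2 was above that of 35.9% and 45.9% of the genes tested.

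**Figure D3:**
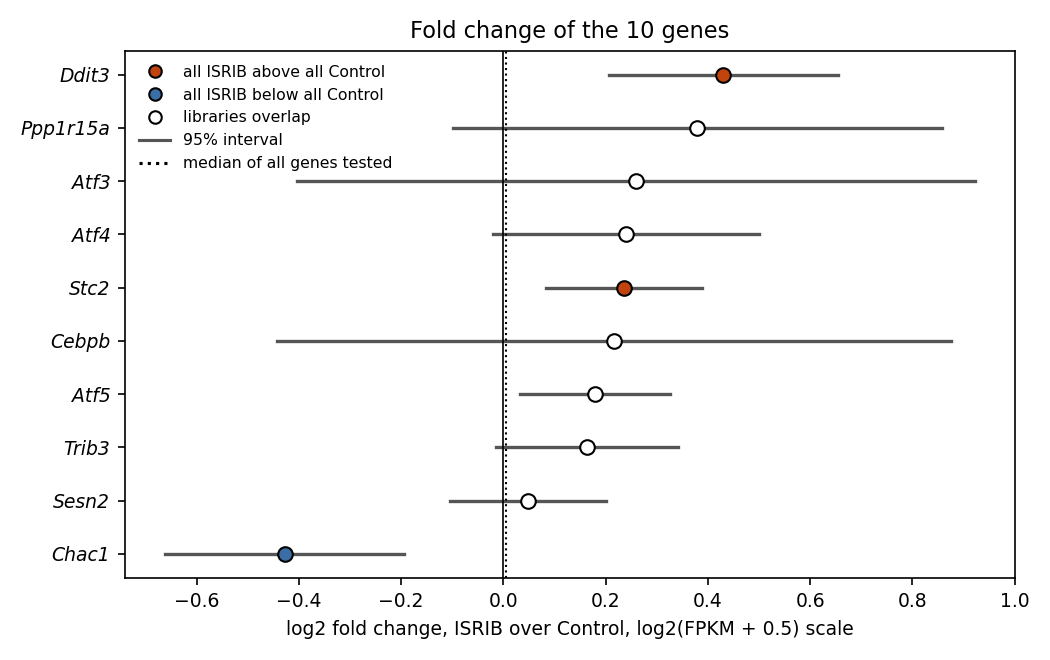
Log2 fold change of ISRIB over Control (x axis, log2(FPKM + 0.5) scale) for each gene, with its 95% interval from limma, filled where the libraries of the 2 groups do not overlap. Ddit3 at 0.43 and Chac1 at −0.43 stand at the ends, and the intervals of Atf3 and Cebpb are the widest.

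Set against Atf4 in the same library, Chac1 was the only one of the other 9 genes whose ratio did not overlap between the groups. The share of all genes whose ratio to Atf4 separates the groups was not computed. By level alone, 22.8% of all genes tested separated, so this count does not set Chac1 apart. Chac1 over Atf4 was 0.0292, 0.0414 and 0.0446 in ISRIB, against 0.0580, 0.0600 and 0.0664 in Control. Ddit3 over Atf4 was 0.0614, 0.0816 and 0.0768 in ISRIB, against 0.0602, 0.0656 and 0.0626 in Control, so that ISRIB 1 lay within the Control range. The ratios of Stc2, Cebpb, Atf3, Atf5 and Trib3 to Atf4 differed by −0.08 to 0.02 on the log2 scale, less than the within-group SD of each, while those of Ppp1r15a and Sesn2 differed by 0.14 and −0.19, near that SD (0.172 and 0.176).

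ISRIB 1 and Control 2 stood apart from the other libraries of their groups for several of the genes. ISRIB 1 was the highest of the libraries for 8 of the 10 genes, with Ddit3 and Chac1 as the exceptions, and for 17% of all genes tested. For Atf4, Atf3, Ppp1r15a and Cebpb, Control 2 was in addition the highest Control library, as for 7.14% of all genes tested. The 18 immediate early genes, which respond within minutes to many stimuli and to tissue handling, had the same order, with ISRIB 1 highest and Control 2 the highest Control library for 17 of 18. Their summed level was 827, 357 and 319 FPKM in ISRIB, against 298, 557 and 316 FPKM in Control. Among them Egr1 measured 175, 55.3 and 49.2 FPKM in ISRIB, against 46.2, 127 and 45.5 FPKM in Control. The order was not particular to the immediate early genes. It also held for 9 of 10 ATF6 and XBP1 targets of the ER stress response, 4 of 8 NRF2 targets and 3 of 6 CHOP targets. It held for 4 of 10 p53 targets, 3 of 18 other ATF4 targets and 0 of 10 hypoxia targets. The summed level of 5 red cell markers was 328, 75.8 and 72.4 FPKM in ISRIB, against 67.9, 40.5 and 75.3 FPKM in Control, so ISRIB 1 stood apart there too (the hemoglobin genes have near-identical copies, which may share reads). What part any of these lists had in the levels of the ISR genes was not tested. Without ISRIB 1 and Control 2 the log2 fold change was 0.52 for Ddit3, −0.33 for Chac1, 0.34 for Atf3, 0.30 for Ppp1r15a, 0.18 for Atf4 and 0.02 for Cebpb, and 0 genes passed.

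**Figure D4:**
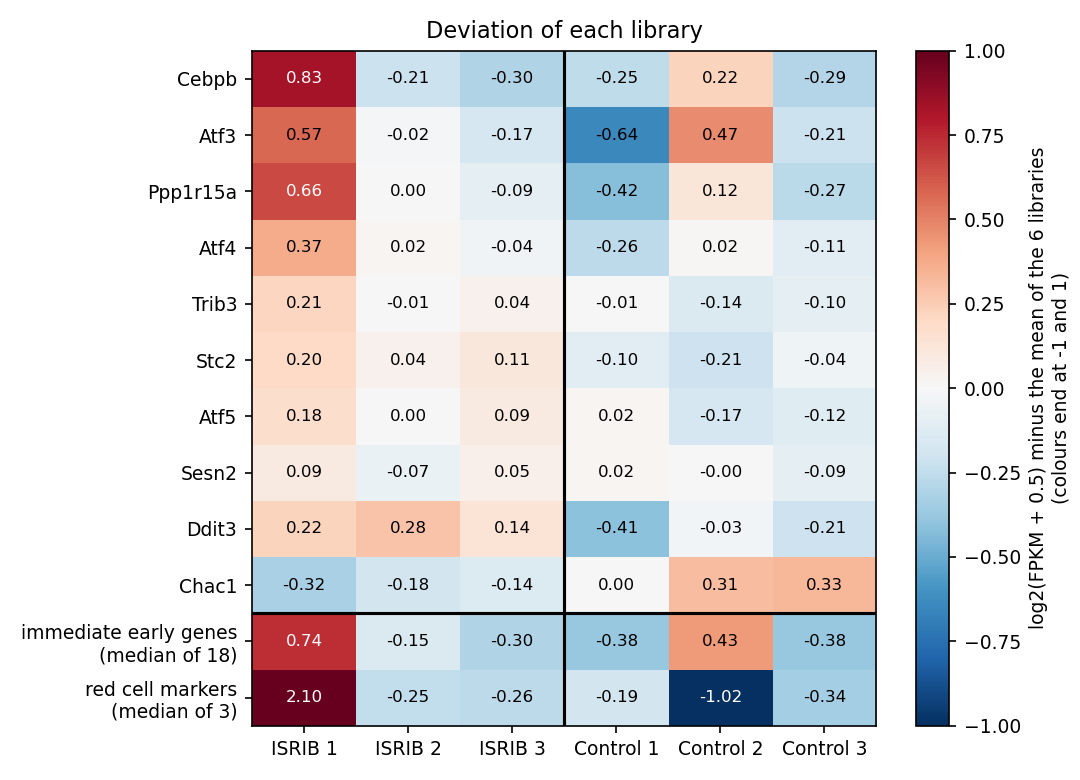
Deviation of each library (columns) from the mean of the 6 libraries, in log2(FPKM + 0.5), for the 10 genes and for the medians of 18 immediate early genes and 3 red cell markers; colours end at −1 and 1. Cebpb, Atf3, Ppp1r15a and Atf4 are highest in ISRIB 1 and, within Control, in Control 2, as the immediate early genes are. Ddit3, Stc2 and Chac1 separate by group, and Ddit3 too is highest within Control in Control 2.

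**Figure D5:**
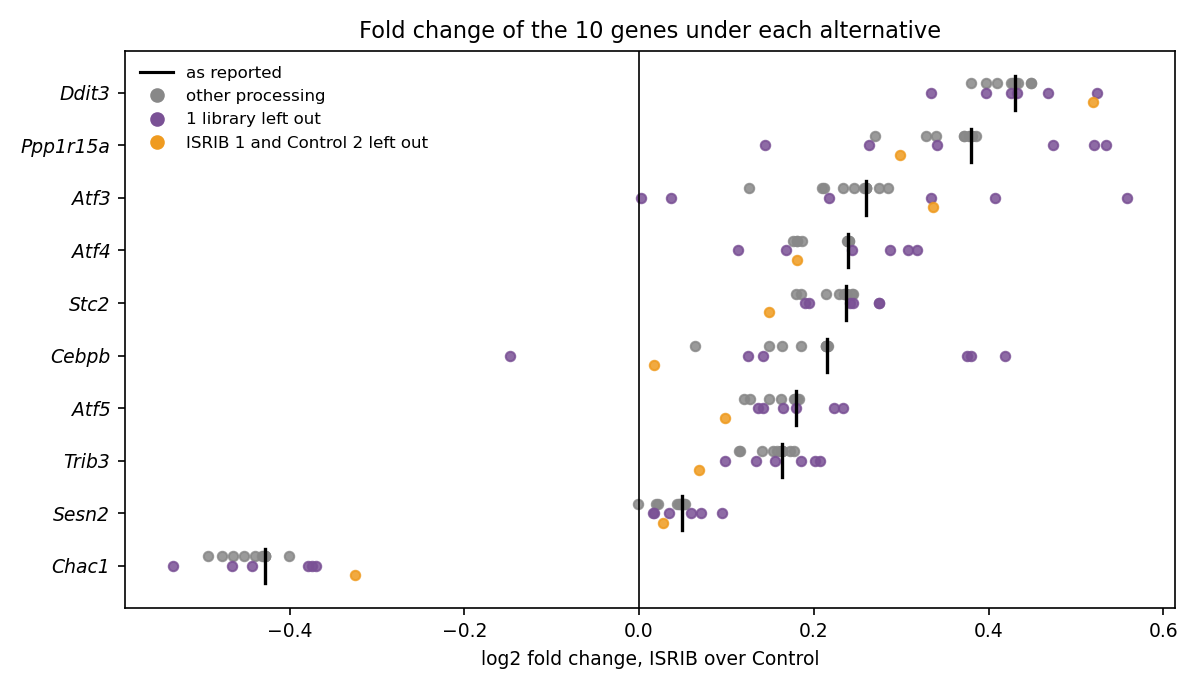
Log2 fold change of ISRIB over Control (x axis) for each gene as reported (bars), under other processing, with 1 library left out and without ISRIB 1 and Control 2. Ddit3 lies between 0.33 and 0.52 and Chac1 between −0.53 and −0.33, and Cebpb reaches −0.15 and Atf3 0.00. Leaving out libraries cannot turn the direction of Ddit3 or Chac1, whose groups do not overlap.

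The closest relatives of the 10 genes were also measured. Of 11 paralogs, 8 were higher and 3 lower in ISRIB, with a median log2 fold change of 0.06, and 0 passed. That median was 0.02 without Control 1, 0.14 without ISRIB 2 and 0.01 after TPM rescaling, which moved the median of all genes tested to −0.04. Stc1, the other stanniocalcin gene, measured 14.6, 12.3 and 13.2 FPKM in ISRIB, against 10.2, 11.0 and 11.4 FPKM in Control, and was higher in every ISRIB library like Stc2 (log2 fold change 0.29, adjusted p = 0.136). Sesn3, a sestrin gene, measured 28.4, 26.6 and 26.1 FPKM in ISRIB, against 30.5, 31.3 and 32.2 FPKM in Control, and was lower in every ISRIB library (−0.21, adjusted p = 0.119). Cebpa had a log2 fold change of 0.31 and the Atf3 relative Jdp2 of 0.19, both with overlapping groups (adjusted p = 0.348 and 0.338).

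The sensors and their targets upstream of ATF4 had small fold changes. Of 12 genes for the eIF2 kinases, eIF2 and eIF2B, 7 were higher and 5 lower, with log2 fold changes of −0.14 to 0.07, a median of 0.03, and groups that overlapped for every gene. That median was −0.02 after TPM rescaling and without ISRIB 1. Eif2s3x, the X-linked eIF2 gamma subunit, measured 38.0, 34.7 and 31.9 FPKM in ISRIB, against 36.7, 37.9 and 40.4 FPKM in Control (−0.14, adjusted p = 0.368). Eif2ak4, the gene of the amino acid sensing kinase GCN2, had a log2 fold change of −0.08 and Eif2b2 of 0.07.

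Other genes downstream of ATF4 were split between the directions. Of 20 further ATF4 target genes, 18 were abundant enough to be tested, 9 were higher and 9 lower, and the median log2 fold change was 0.02. The sign of that median was not stable, at −0.01 without Control 1, 0.08 without ISRIB 2 and −0.03 after TPM rescaling. Ddit4, an mTORC1 inhibitor that low oxygen also raises, measured 48.5, 45.2 and 55.0 FPKM in ISRIB, against 43.6, 32.4 and 43.1 FPKM in Control (0.33, adjusted p = 0.241), and the leucine transporter gene Slc7a5 stood at −0.11 on the log2 scale (adjusted p = 0.351). Of 6 genes known as CHOP targets 5 were higher, where 51.8% of all genes tested were. Their median was 0.07, which was 0.05 without ISRIB 1, 0.02 after TPM rescaling and 0.13 for genes with a mean of at least 5 FPKM. Among them Ero1a, an ER oxidase gene, measured 36.7, 26.9 and 29.7 FPKM in ISRIB, against 23.1, 23.9 and 24.7 FPKM in Control (0.36, adjusted p = 0.158), with no overlap between the groups, as for Dnajb9 (0.22, adjusted p = 0.217). Only these 2 of the 6 were higher without overlap (background 10.8%), while Tnfrsf10b (0.13) and Bcl2l11 (−0.05) were among those that overlapped.

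The lists that share regulators with single ISR genes all had positive medians, which differed in size. All 10 targets of ATF6 and XBP1, the other branches of the ER stress response, were higher in ISRIB, 7 without overlap, where 51.8% of all genes tested were higher and 10.8% higher without overlap. Their median log2 fold change was 0.29 (0.22 without ISRIB 1 and 0.36 without Control 2), and 0 passed. Creld2, an ER protein gene raised by ER stress, measured 70.1, 58.7 and 53.6 FPKM in ISRIB, against 39.6, 45.3 and 41.1 FPKM in Control (0.52, adjusted p = 0.0987). Of 10 hypoxia targets 9 were higher, all 9 without overlap (background 10.8%), with a median of 0.43. Of 10 p53 targets 6 were higher and 4 lower (median 0.05, and −0.03 without ISRIB 1 and 0.10 without ISRIB 2). Of 8 NRF2 targets 7 were higher and 1 lower, and their median of 0.05 was 0.002 without Control 3, 0.12 without Control 2 and 0.001 after TPM rescaling. ISRIB 1 was the highest library for all 10 ATF6 and XBP1 targets and for 4 of 10 hypoxia targets.

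Over the 6 libraries, the genes whose pattern was most like that of Ddit3 were Pfdn6, Rbm8a and Slc12a4, with Pearson r of 0.995, 0.990 and 0.987 of log2(FPKM + 0.5). For Chac1 they were Vps35l, Itm2c and Psap, at 0.991, 0.990 and 0.989. These are the top of 9005 genes with a mean of at least 5 FPKM, of which 134 and 103 exceeded 0.9, and with 6 points that share the 2 groups the values describe likeness in these libraries alone.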

How the data were processed

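Libraries of total RNA from cultured mouse ovary, 3 ISRIB and 3 Control, were prepared with a VAHTS Universal kit, per the labels' protocols. The deposited values are the authors' FPKM of 26329 genes, 1 column per library, not pooled. The submitters' processing notes name the build mm10 and, with no roles, DESeq2, R 3.2.0, HTSeq, HISAT2 and fastp. The sources used here do not state the annotation or strand setting, and reads of overlapping genes may not be told apart. Groups came from the sample titles.

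Because FPKM are no counts, limma 3.58.1 (R 4.3.3) was run on log2(FPKM + 0.5) of the 12922 genes whose mean was at least 1 FPKM, as a two-sided test of group with an intensity trend and a threshold of 0.05 on the p adjusted by Benjamini-Hochberg. Fold changes on this scale understate those of low genes. Whole reads were worked back from the FPKM as reads times a gene and a library factor; 100% of genes came out whole (tolerance 0.01 read). A common divisor of a gene's reads cannot be seen, so reads may be a multiple of those given. The limma test was also run on simulated data of the ISRIB against Control comparison (12922 genes). There limma found 71 of 100 genes changed by 0.5 and 92 of 100 changed by 1 on the log2 scale, with 8 false calls. The simulated noise was drawn for each gene on its own, without deviations that a library shares over genes. These numbers may therefore not carry over to the real libraries. Tables and figures used Python 3.11.15, pandas 2.3.3 and matplotlib 3.10.9.

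The members and lists were chosen with earlier results of these data known. All 10 members are named, from each other list at most the 4 genes with the smallest p, and for Ddit3 and Chac1 the 3 most correlated genes; not every gene so named is printed. Col1a1, Foxl2, Ddx4 and Egr1 were named outside this rule, after their values were seen. The list entries Cyr61 and Ero1l were matched as Ccn1 and Ero1a. Gene positions are from GENCODE M21 (GRCm38, the same assembly as mm10), matched by symbol, and promoter sequences from RefSeq (GRCm38.p6), found for all 10 genes. Alternatives were 18 planned ones and 1 added after seeing the data, without ISRIB 1 and Control 2.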

Additional observations from a re-analysis of the deposited data

How the results depend on the processing

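Across 19 alternatives, the log2 fold change was 0.33 to 0.52 for Ddit3 and −0.53 to −0.33 for Chac1, and 0 of the 10 genes passed under any of them. The groups of both genes did not overlap, so leaving out libraries could not turn their directions. Alternatives that changed only the test, such as no intensity trend, left their fold changes as reported. The limma adjusted p ranged from 0.0690 to 0.274 for Ddit3 and from 0.0829 to 0.339 for Chac1. The difference between their fold changes was 0.80 to 0.93 when single libraries were left out. The median of the 10 genes was 0.11 to 0.28 when single libraries were left out, lowest without ISRIB 1. The direction turned for 2 genes: Cebpb was −0.15 without ISRIB 1 (−0.15 to 0.42 when single libraries were left out), and Sesn2 was −0.001 after TPM rescaling; the cause was not tested. Over all genes, 0 passed as reported and 8 passed with a mean of at least 5 FPKM, where fewer genes were tested, 19 after TPM rescaling, 16 with array weights, 120 with voom on the recovered reads (40 higher, 80 lower) and 11 with the replicate number as a block. That block was fitted although same-numbered libraries did not deviate together (Pearson r −0.19, −0.09 and 0.19 over genes for numbers 1, 2 and 3). These values gave no sign that the numbers pair the samples, but with 3 libraries a group they cannot exclude it. With 3 libraries a group, the spread between libraries limits what can be shown for Atf3 and Cebpb.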
